A study of Mus musculus with 54 samples.

Results

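RNA from whole ovaries of F2 mice was compared between daughters of fathers from the dose 1 line and daughters of control parents. The comparison holds 6 of the series' 54 libraries, 3 for each group, and was made over all 17454 genes that passed a filter on low counts. The study gave pregnant mice and their offspring drinking water with a mixture of ibuprofen, its hydroxylated form 2hIBU, diclofenac and ethinyl oestradiol from day 8.5 after mating, and sequenced ovary and testis of F1 and F2 animals. In the first group the father came from dose 1 (11.3 ng/L ibuprofen, 90 ng/L 2hIBU, 22.5 ng/L diclofenac and 2.25 ng/L ethinyl oestradiol) and the mother from the control line. In the second group both parents came from the control line, whose water held 0.001% ethanol. Further comparisons used daughters of dose 1 mothers with control fathers and daughters of dose 2 fathers with control mothers. Testes of sons of dose 1 fathers and of control parents, aged 10 weeks, were also used. Dose 2 held 113 ng/L ibuprofen, 225 ng/L 2hIBU, 112 ng/L diclofenac and 45 ng/L ethinyl oestradiol. The labels give 8 weeks as the age of the females and list no treatment for the F2 animals themselves, although the exposure protocol is printed for every sample. Strain, oestrous stage, hour of collection and the litter of origin are not given, and the labels do not say that the 3 libraries of a group came from separate animals, so each p reflects the spread among libraries, which may be technical.

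An adult ovary is a mixture of follicles and corpora lutea whose proportions move with the oestrous cycle. Granulosa and theca cells of the follicle make oestrogen and its androgen precursor, while the corpus luteum formed after ovulation takes up and makes cholesterol and turns it into progesterone. Ibuprofen and diclofenac inhibit the cyclooxygenases, which start prostaglandin synthesis and are needed for ovulation, and ethinyl oestradiol is a synthetic ligand of the oestrogen receptors. In bulk tissue, fewer cells of a type and less RNA per cell cannot be told apart.

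The total count of the 6 libraries was 40950329 to 55342209. Granulosa and oocyte genes were present in all 6, with Foxl2 at 218 to 303 CPM (the gene's count scaled to the same total in every library) and Zp2 at 70.8 to 110. Libraries of the 2 groups did not separate as a whole: the root mean square log2 difference was 0.528 to 0.584 between the father dose 1 libraries, 0.623 to 0.661 between control libraries and 0.495 to 0.732 across groups. Father dose 1 library C differed by 0.495, 0.542 and 0.56 from controls A, B and C. From father dose 1 libraries A and B it differed by 0.574 and 0.528, so it lay closer to control A than to its own group.

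No gene passed an adjusted p of 0.05 in edgeR's quasi-likelihood test, so 0% of genes were called. The smallest adjusted p was 0.304. An unadjusted p under 0.05 was reached by 1681 genes, or 9.63%, against 873 if p-values were uniform, with 1008 (5.78%) higher and 673 (3.86%) lower in daughters of dose 1 fathers. The 3 libraries of one group lay wholly above those of the other for 1291 genes (7.4%) that were higher and 1427 (8.18%) that were lower. DESeq2 on the same libraries called 82 genes, 51 higher and 31 lower. The values below therefore describe these libraries, and no single gene is called changed in this comparison by the edgeR test.

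Several of the genes of smallest p lay in one place in the genome. Dctn3, which encodes a subunit of the dynactin complex that works with the dynein motor, stood at 77.5, 78.4 and 55.8 CPM in libraries A, B and C of the father dose 1 group and at 33.4, 22.9 and 20.2 CPM in the controls. The groups did not overlap, and the fitted log2 difference was 1.49 ± 0.25 (SE, n = 3 and 3, unadjusted p = 2.96e-05, adjusted p = 0.304).

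In RefSeq gene order Dctn3 sits in a run of 8 consecutive genes, among them Rpp25l, Arid3c, Gm42274, Galt, Il11ra1 and Ccl27a. This window was chosen after the values had been seen. All 8 were higher without overlap, against 7.4% of all genes, and higher at an unadjusted p under 0.05, against 5.78%. Their log2 differences were 0.87 to 1.49 with a median of 1.19, where the median over all genes tested was -3.66e-05. Galt, the galactose-1-phosphate uridylyltransferase of galactose breakdown, stood at 45.8, 39.5 and 32.2 CPM against 25.4, 13.4 and 13 CPM. Rpp25l stood at 30.8, 31.6 and 24.8 CPM against 15.8, 10.9 and 8.86 CPM. In both genes, as in Dctn3, control library A was the highest of the controls and still lay below every father dose 1 library. Ccl27a and Il11ra1 have near-identical copies nearby, so reads may be split among them and their values are uncertain. Arid3c was low, at 0.386 to 0.957 CPM against 0.289 to 0.347.

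Beyond Rpp25l the tested genes had smaller differences or the other sign. Cntfr, the next gene, which encodes a receptor subunit for ciliary neurotrophic factor, stood at 6.54, 10.6 and 16.3 CPM against 20.2, 13.3 and 16.5 CPM, a log2 difference of -0.57 ± 0.30 (unadjusted p = 0.0772). Fam219a, 4 steps from Dctn3 on the same side, differed by -0.01 ± 0.09. Of the 8 tested genes in the flank, 1 had an unadjusted p under 0.05, where 9.63% of all genes did. It was Myorg, at 19.7, 18.7 and 18.1 CPM against 14.4, 14.2 and 14.9 CPM. The 4 entries beyond Ccl27a had no counts in these libraries, so no tested gene marks the end of the run on that side.

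**Figure D1:**
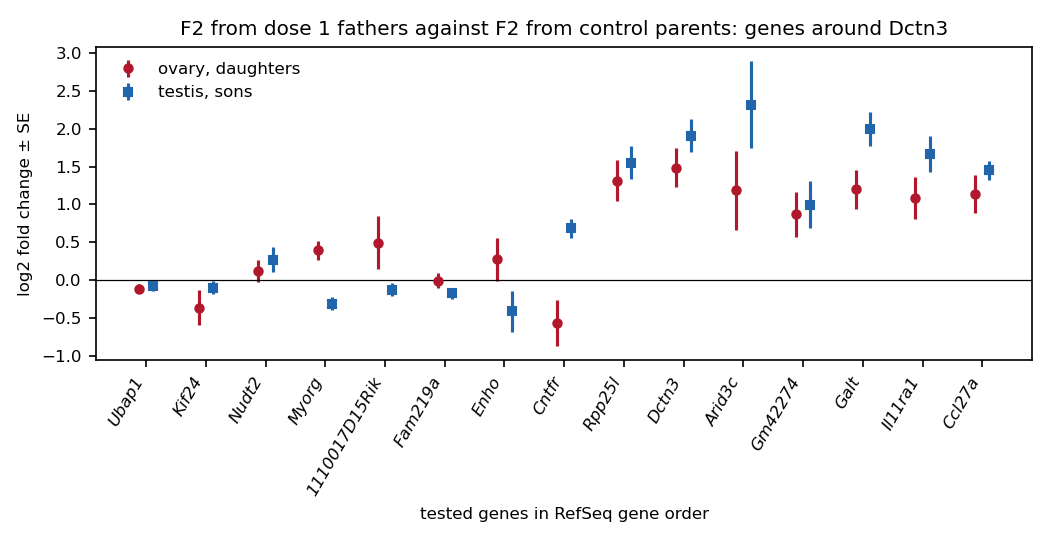
Log2 fold change with SE (vertical axis) for the named genes tested within 10 table entries of Dctn3, in RefSeq order (horizontal axis), for F2 from dose 1 fathers against F2 from control parents in ovary (circles) and testis (squares). The genes from Rpp25l to Ccl27a lie between 0.87 and 1.49 in ovary, and the flanking genes between -0.57 and 0.49.

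The same genes were read in the other 7 ovary groups. All 21 other ovary libraries had more Dctn3 than the highest control library, and 15 of them had less than the lowest father dose 1 library. The F1 control ovaries, which share the line of the control parents, stood at 68.1, 58.2 and 39.7 CPM for Dctn3. For Galt, 15 of the 21 lay above the highest control library and 16 below the lowest father dose 1 library. Control daughters thus had the lowest Dctn3 of any ovary group, while father dose 1 and mother dose 1 daughters had the highest group means, at 70.6 ± 12.8 and 69.1 ± 22.9 CPM (SD, n = 3 each). The control daughters stood to one side of most other ovary libraries for several genes described below, chosen after their values were seen. Of the 21 other libraries, 19 lay above the highest control for Dbp, and 20 lay below the lowest control for Gata4, 19 for Meg3, 19 for Igfbp5 and 18 for Cyp19a1.

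**Figure D2:**
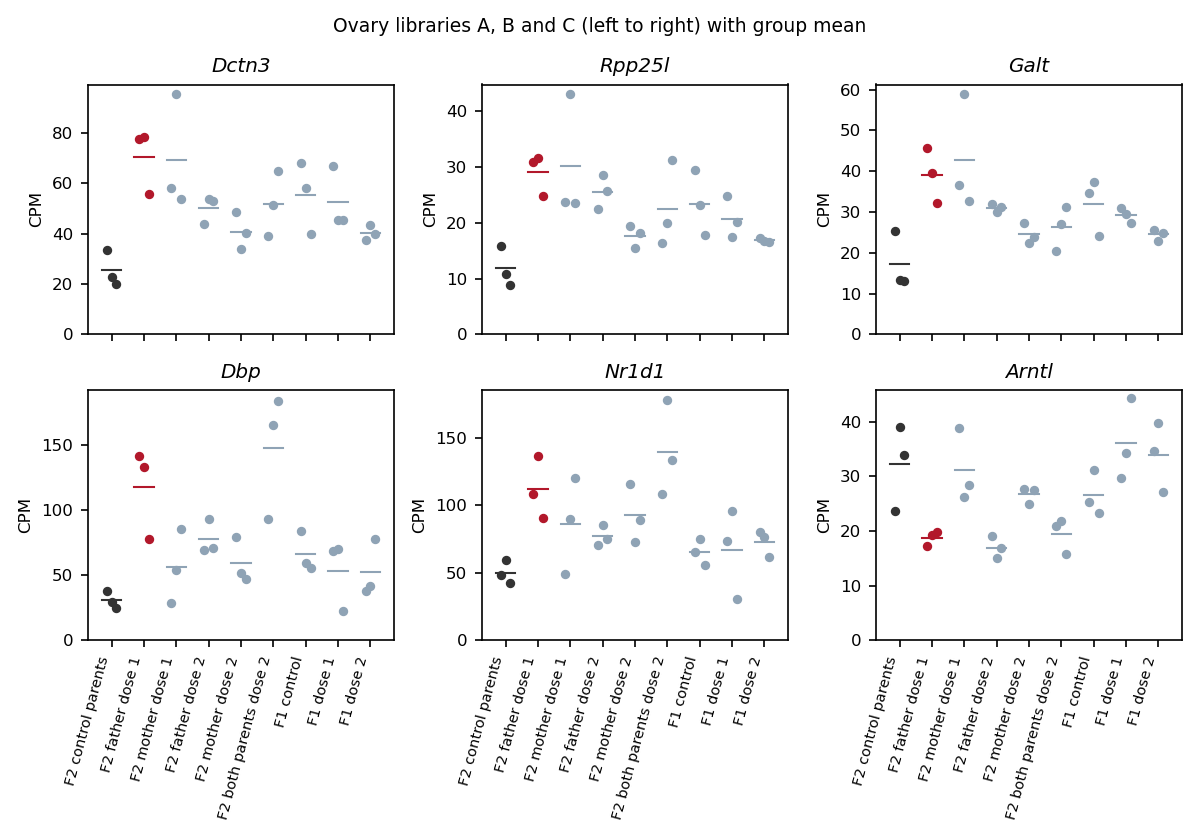
CPM (vertical axis, from 0) of Dctn3, Rpp25l, Galt, Dbp, Nr1d1 and Arntl in each of the 27 ovary libraries (points), by group (horizontal axis), with group means (lines). The F2 control parents group is the lowest for Dctn3, Rpp25l and Galt, and the father dose 1 libraries lie above the controls for Dbp and Nr1d1 and below them for Arntl.

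Circadian clock genes were the other set near the top of the ranking. In the clock, ARNTL (BMAL1) and CLOCK drive transcription through E-box elements, PER and CRY proteins inhibit them, NR1D1 and NR1D2 repress Arntl, and the output factors DBP, TEF and HLF act through D-box elements. Of 19 clock genes tested, 7 were higher and 4 lower at an unadjusted p under 0.05, with a list median of 0.46, against 5.78% and 3.86% of all genes. With the edgeR test none passed the adjusted threshold, while with DESeq2 7 of the 19 did, 6 of them higher. DESeq2 called 82 of all 17454 genes.

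The promoters of Per3 and Tef are shown because both genes are among those 7 higher ones and carry the letters through which the clock is known to act. The windows run from 250 bases before to 50 bases after the annotated start, are printed in the direction of the gene and come from RefSeq on GRCm38.p6. They were searched on both strands for the E-box CACGTG and for the D-box written as TTATGTAA or TTACGTAA, and no match overlapped another. Capitals mark the matches.
Per3, chr4:151044616-151044915, minus strand: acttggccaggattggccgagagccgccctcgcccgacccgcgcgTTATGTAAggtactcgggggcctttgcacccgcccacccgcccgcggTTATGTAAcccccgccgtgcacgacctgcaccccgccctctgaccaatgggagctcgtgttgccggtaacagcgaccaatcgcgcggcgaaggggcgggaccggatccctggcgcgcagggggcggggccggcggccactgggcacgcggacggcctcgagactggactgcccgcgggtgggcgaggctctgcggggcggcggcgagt
Tef, chr15:81811164-81811463, plus strand: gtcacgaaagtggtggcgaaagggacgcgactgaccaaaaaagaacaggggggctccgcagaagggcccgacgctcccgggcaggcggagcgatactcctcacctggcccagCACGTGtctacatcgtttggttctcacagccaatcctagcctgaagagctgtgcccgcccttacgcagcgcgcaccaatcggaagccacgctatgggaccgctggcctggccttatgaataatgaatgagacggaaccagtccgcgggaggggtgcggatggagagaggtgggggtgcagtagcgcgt

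The Per3 window held 2 D-box matches, beginning 205 and 158 bases before the start. It was the only one of 21 clock windows with a D-box, which 1.06% of all 32851 RefSeq windows held. The E-box was found for 5 of the 16 clock genes with a window, against 8.09% of all genes with a window, and for 5 of 15 cholesterol genes. Of these 5 clock genes, only Tef was among the 7 higher ones, and Cry1 lay the other way. The windows of the other higher genes, Dbp, Nr1d1, Nr1d2, Hlf and Rora, held neither motif, and nor did that of Arntl. A match is a description of the letters in this window, and binding was not measured.

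Dbp stood at 141, 133 and 77.8 CPM in daughters of dose 1 fathers and at 37.4, 29.6 and 25 CPM in control daughters. The groups did not overlap, with a log2 difference of 1.96 ± 0.39 (unadjusted p = 0.000155, adjusted p = 0.326). Per3, a period gene of the negative limb, stood at 86.4, 65.4 and 55.8 CPM against 45.3, 27.5 and 31.6 CPM, a difference of 1.01 ± 0.21 (unadjusted p = 0.000238, adjusted p = 0.326).
The repressor gene Nr1d1 stood at 109, 136 and 90.6 CPM against 48.0, 59.3 and 42.2 CPM, a difference of 1.18 ± 0.29 (unadjusted p = 0.0011). Its paralog Nr1d2 was at 157, 146 and 125 CPM against 107, 74.7 and 90.5 CPM. Tef and Hlf were higher by 0.55 ± 0.13 and 0.69 ± 0.17, neither with overlap, and Rora, the activator of Arntl, by 0.92 ± 0.42 with overlap. In Dbp, Per3, Nr1d1, Nr1d2, Tef and Hlf every father dose 1 library was above every control library. These were 6 of the 19 clock genes tested, where 7.4% of all genes were higher without overlap.

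Arntl lay the other way, at 17.2, 19.3 and 19.8 CPM against 23.7, 39.1 and 34.0 CPM, a log2 difference of -0.77 ± 0.18 (unadjusted p = 0.000618, adjusted p = 0.365). Cry1 differed by -0.29 ± 0.10, also without overlap. Nfil3 differed by -0.59 ± 0.27 with overlapping libraries, and the control value of 38.6 CPM in library C lay far above the 15 and 21.4 CPM of A and B. Per1 (0.46 ± 0.24) and Per2 (0.38 ± 0.32) overlapped between groups. The hour at which the ovaries were taken is not given, so a difference in collection time and a difference between the groups cannot be told apart. Noct, a gene of rhythmic expression also known as nocturnin, stood at 17.1, 17.6 and 18.4 CPM against 22.9, 29.1 and 26.0 CPM, among the smallest p of all genes (-0.54 ± 0.12, unadjusted p = 0.000299).

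**Figure D3:**
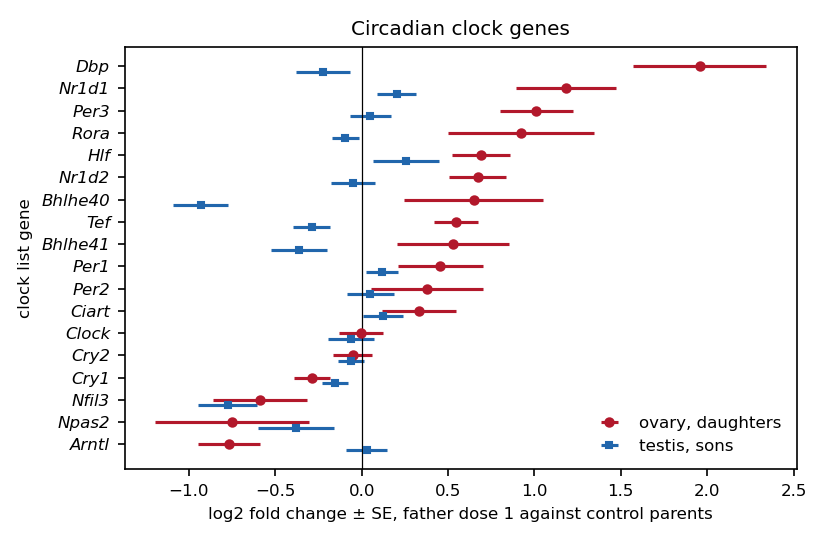
Log2 fold change with SE (horizontal axis) of tested clock genes (vertical axis) for father dose 1 against control parents, in ovary of daughters (circles) and testis of sons (squares). In ovary Dbp is highest at 1.96 and Arntl lowest at -0.77.

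Genes of cholesterol synthesis and uptake were higher as a list. Of 23 tested, 13 were higher at an unadjusted p under 0.05, against 5.78% of all genes, none was lower, and the list median was 0.99. Lss, the lanosterol synthase, stood at 246, 192 and 98.9 CPM against 39.3, 83.1 and 71.4 CPM, a log2 difference of 1.49 ± 0.48 (unadjusted p = 0.00798, adjusted p = 0.383). Sqle, the squalene epoxidase, stood at 292, 236 and 117 CPM against 52.7, 110 and 100 CPM. Neither overlapped, but in both father dose 1 library C lay just above the highest control. Hsd17b7, an enzyme of both cholesterol and oestradiol synthesis, had the largest difference of the list, at 2110, 601 and 224 CPM against 89.3, 256 and 86.0 CPM, with overlap, and its log2 difference of 2.80 ± 1.03 was 1.51 without father dose 1 library A. Stard4, a sterol carrier, was higher by 1.00 ± 0.34, and Srebf2, which encodes the regulator of the pathway, by 0.09 ± 0.13. The count of 13 was 3 without control library A, 5 without father dose 1 library A, 7 without father dose 1 library B and, without control C, 9.

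Steroid and luteal genes lay in both directions. Star, which carries cholesterol into mitochondria, stood at 2069, 4046 and 993 CPM against 317, 535 and 791 CPM, a log2 difference of 2.12 ± 0.80 (unadjusted p = 0.0191, adjusted p = 0.429). Scarb1, the receptor that takes up high density lipoprotein cholesterol, stood at 2153, 1854 and 1217 CPM against 809, 1051 and 782 CPM (1.00 ± 0.34, unadjusted p = 0.00937). Both were free of overlap. Hsd3b1, which makes progesterone, was higher by 0.57 ± 0.21 with overlap, and Cyp11a1, which makes pregnenolone, by 0.44 ± 0.21 without.
The thecal androgen enzyme gene Cyp17a1 lay the other way, at 272, 154 and 586 CPM against 1579, 941 and 657 CPM (-1.63 ± 0.83, unadjusted p = 0.0685). Aromatase, Cyp19a1, stood at 67.1, 45.2 and 89.3 CPM against 258, 96.1 and 101 CPM (-1.15 ± 0.67, unadjusted p = 0.107). The follicle-stimulating hormone receptor Fshr stood at 35.4, 33.7 and 38.2 CPM against 55.7, 53.7 and 44.9 CPM (-0.51 ± 0.19, unadjusted p = 0.0191), and Nr5a1, a regulator of steroidogenic genes, differed by -0.45 ± 0.16. All 4 were lower without overlap, as were 8.18% of all genes. Star was at 1.5 without father dose 1 B, Cyp17a1 at -2.28 without father dose 1 C and Cyp19a1 at -0.55 without control A, the library in which aromatase was highest.

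Over the steroid list of 21 tested genes, 4 were higher and 2 lower at an unadjusted p under 0.05, against 5.78% and 3.86% of all genes. The 4 became 2 without father dose 1 A or control A and 7 without father dose 1 C, and the 2 lower became 0 without father dose 1 B or control A and 1 without control B. Over the 21 tested corpus luteum genes, 6 were higher and 1 lower, with a median of 0.45, beside the same shares of all genes. Besides Star, Scarb1 and Hsd3b1, which belong to both lists, the higher ones included the prolactin receptor Prlr, at 1099.9, 748 and 507 CPM against 376, 511 and 405 CPM, and the isocitrate dehydrogenase Idh1, higher by 0.65 ± 0.21. Akr1c18, which inactivates progesterone in ageing corpora lutea, ranged from 84.7 to 1927 CPM in the father dose 1 group and from 8.11 to 1292 CPM in the controls. The summed CPM of the luteal list was 22322 to 35491 against 19482 to 21003, and its part in the cholesterol and steroid differences was not tested. Without father dose 1 library A, 2 of the 21 luteal genes had an unadjusted p under 0.05 and were higher.

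Granulosa regulators had a median of -0.18, with 5 of 23 lower and none higher at an unadjusted p under 0.05, against 3.86% and 5.78% of all genes. Gata4, a transcription factor of granulosa and theca cells, stood at 237, 237 and 278 CPM against 393, 364 and 301 CPM (-0.48 ± 0.15, unadjusted p = 0.00542). Inhba, the activin subunit gene, differed by -0.73 ± 0.33, with library A of the controls at 1524 CPM and the other 2 at 810 and 815 CPM. The 5 lower granulosa genes became 1 without father dose 1 B, 2 without control A, 3 without father dose 1 A or C, and 2 in the fits of the 6 libraries alone or of all 27. Foxl2 and Amh, defining genes of these cells, differed by -0.13 ± 0.14 and -0.22 ± 0.28.

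Oocyte genes lay slightly below the controls. Of 22 zona pellucida and oocyte growth factor genes, 21 had a negative difference, where 50% of all genes had a positive one. The list median was -0.28, and 5 were lower at an unadjusted p under 0.05, against 3.86% of all genes. Gdf9, an oocyte growth factor, stood at 62.1, 78.9 and 82.9 CPM against 102, 101 and 83.5 CPM (-0.34 ± 0.13, unadjusted p = 0.0225). Zp2, a zona pellucida protein gene, stood at 70.8, 75.4 and 93.7 CPM against 110, 104 and 89.5 CPM (-0.33 ± 0.11, unadjusted p = 0.00767). Gdf9 did not overlap between groups, by a margin of less than 1 CPM, while Zp2 did.
Of 23 maternal-effect genes, whose products support the early embryo, 21 had a negative difference and 7 were lower at an unadjusted p under 0.05, against 3.86% of all genes, with a median of -0.24. The count of 7 was 4 without father dose 1 library A and 3 in the fit of all 27 ovary libraries. Padi6, part of the subcortical complex of the egg, differed by -0.42 ± 0.13, and Nlrp14 by -0.40 ± 0.13. Since whole ovaries were sequenced, the summed CPM of the zona pellucida list, 472 to 591 against 603 to 680, also moves with the share of oocyte RNA in the sample. The 5 zona pellucida list genes became 1 without father dose 1 library A or control B, 2 without control A, 8 without father dose 1 C and 9 without control C.

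**Figure D4:**
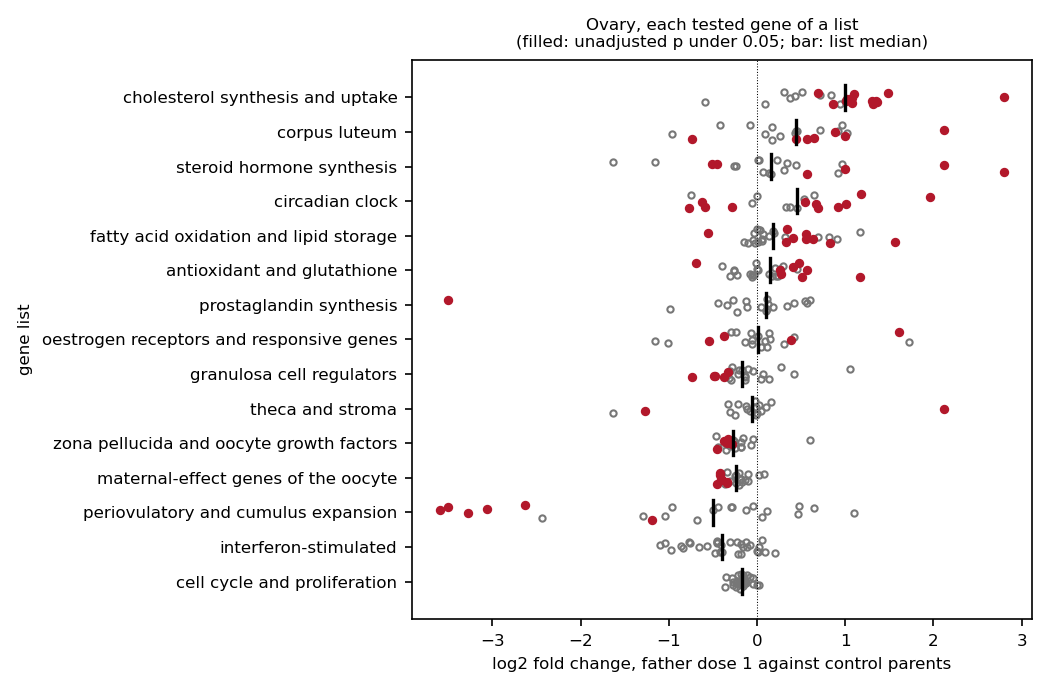
Log2 fold change in ovary (horizontal axis) of each tested gene of 15 lists (vertical axis), father dose 1 against control parents; filled points have an unadjusted p under 0.05 and bars are list medians. The cholesterol list has the highest median at 0.99 and the periovulatory list the lowest at -0.50.

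Periovulatory genes, which the luteinising hormone surge switches on in granulosa and cumulus cells, had a median of -0.50 and 6 of 23 lower at an unadjusted p under 0.05, against 3.86% of all genes. The values rested on control library C. Ptgs2, the inducible cyclooxygenase, stood at 0.489, 0.855 and 0.687 CPM in the father dose 1 group and at 1.12, 0.30 and 21.7 CPM in the controls. Ereg, an epidermal growth factor family ligand of the ovulatory cascade, stood at 3.38, 2.00 and 2.47 CPM against 4.19, 2.26 and 59.3 CPM. Adamts1, a protease of the expanding cumulus matrix, stood at 56.8, 111 and 77.0 CPM against 81.1, 69.1 and 411 CPM. Without control C, none of the 23 was lower at an unadjusted p under 0.05 and the median was 0.03. The 6 became 3 without father dose 1 A, 11 without control B and 0 in a fit of the 6 libraries alone. Without control C the log2 difference was -0.06 for Ptgs2 and -0.27 for Ereg. Areg, a related ligand, was lower without overlap, at 0.133, 0.0488 and 0.0859 CPM against 0.452, 0.162 and 2.11 CPM, but below 1 CPM in 5 of 6 libraries.

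**Figure D5:**
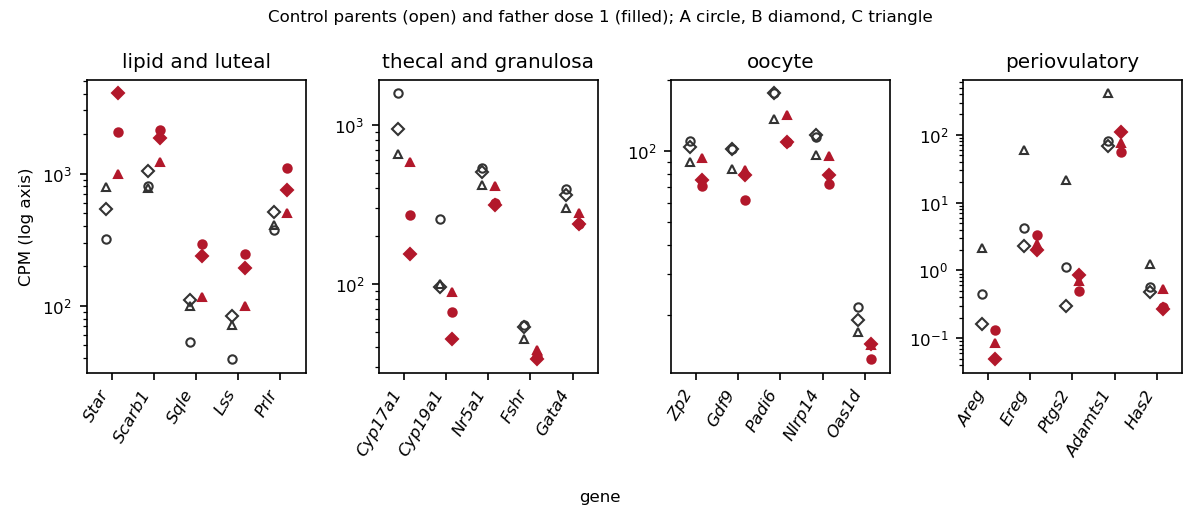
CPM on a log axis (vertical) for 20 ovarian genes (horizontal), with control parents as open and father dose 1 as filled symbols (A circle, B diamond, C triangle). Star and Scarb1 are higher and Cyp17a1 and Cyp19a1 lower without overlap, and control C stands far above the other 5 libraries for Ereg, Ptgs2 and Adamts1.

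Gene groups tied to the targets of the mixture's drugs were counted beside the shares of all genes, 5.78% higher and 3.86% lower. Of 19 prostaglandin synthesis genes, 1 was lower at an unadjusted p under 0.05, namely Ptgs2, and none was higher. The constitutive cyclooxygenase Ptgs1 stood at 6.54, 9.08 and 7.17 CPM against 7.08, 4.97 and 33.4 CPM, control C again being the high one. Of 10 tested prostanoid receptor and transporter genes, 1 was higher, the prostacyclin receptor Ptgir, at 3.18, 2.78 and 1.18 CPM against 1.14, 1.46 and 1.08 CPM. Of 21 oestrogen receptor and response genes, 2 were higher and 2 lower, with a median of 0.02. The receptors Esr1 and Esr2 differed by 0.09 ± 0.19 and 0.14 ± 0.20. Cish, a cytokine signalling inhibitor, stood at 175, 110 and 72.5 CPM against 29.2, 53.2 and 36.8 CPM (1.61 ± 0.46, unadjusted p = 0.00361). The 2 lower genes were Greb1 and Igfbp5, at -0.38 ± 0.16 and -0.54 ± 0.19, both without overlap.

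Imprinted genes and DNA methylation genes are often studied in inheritance through the germ line. Of 26 imprinted genes tested, 2 were lower at an unadjusted p under 0.05 and none higher, against 3.86% and 5.78% of all genes. The maternally expressed RNA Meg3 stood at 130, 163 and 184 CPM against 229, 222 and 283 CPM, without overlap (-0.61 ± 0.19, unadjusted p = 0.00537). Dlk1, from the same imprinted cluster, stood at 1.6, 1.37 and 11.1 CPM against 16.6, 3.65 and 24.7 CPM. H19 and Igf2 differed by -0.31 ± 0.26 and 0.15 ± 0.30. Of 16 DNA methylation and demethylation genes, 1 was lower: Dnmt3l, the cofactor that guides methylation in the oocyte, at 1.6, 2.12 and 1.74 CPM against 3.07, 1.80 and 2.70 CPM.

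The antioxidant and lipid lists held more higher than lower genes. Of 28 antioxidant and glutathione genes, 7 were higher and 1 lower at an unadjusted p under 0.05, against 5.78% and 3.86% of all genes. The count of 7 was 2 without father dose 1 A, 3 without control A and 4 without father dose 1 B or control C. Gpx3, the secreted glutathione peroxidase, stood at 940, 952 and 616 CPM against 408, 281 and 442 CPM (1.17 ± 0.32, unadjusted p = 0.00231), and catalase, Cat, at 144, 144 and 112 CPM against 103, 107 and 94.4 CPM. Of 29 fatty acid oxidation and lipid storage genes, 8 were higher and 1 lower, among them Cpt1a (0.34 ± 0.15), which brings fatty acids into mitochondria, and Hadh (0.41 ± 0.13) of beta oxidation. The 8 fatty acid genes became 2 without father dose 1 library A or control A and 4 without father dose 1 B. No gene passed an unadjusted p of 0.05 in the interferon (31 tested), antigen presentation (18 class I, 11 class II) or cell cycle (26) lists.

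Single genes outside these lists were named by the smallest p. Sts, the steroid sulfatase that frees oestrogens and androgens from their sulfates, stood at 14.4, 19.1 and 18.8 CPM against 9.38, 8.27 and 11.4 CPM (0.86 ± 0.16, unadjusted p = 6.93e-05, adjusted p = 0.326). Baiap3, which takes part in vesicle release, had the widest difference of the 15 at 27.1, 14.8 and 5.11 CPM against 1.99, 3.26 and 2.81 CPM (2.57 ± 0.56), which was 1.88 without father dose 1 A.
C1qtnf2 and Tcp11l2 were higher by 1.05 ± 0.21 and 0.37 ± 0.07. Nlrp1a, an inflammasome sensor, stood at 1.00, 1.73 and 2.15 CPM against 5.33, 4.14 and 4.20 CPM (-1.47 ± 0.32). Dok7, an activator of the muscle kinase MuSK, and Stk31, a germ cell kinase, differed by -0.73 ± 0.15 and -0.85 ± 0.18. None of these genes overlapped between groups, but they were named for their small p in these same libraries, so this adds no further support.

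Markers of other tissues were measured beside these results. The summed CPM of the 17 oviduct markers was 26.5 to 50.2 in the father dose 1 group and 20.9 to 25.1 in the controls, with library B highest and Ovgp1 at 17.5 CPM there. The 13 adipocyte markers summed to 94.2 to 111 CPM against 123 to 198. Of the 12 adipocyte markers tested, however, 7 had positive and 5 negative differences, with a median of 0.10. Plin1 stood at 21.7 to 35.8 CPM against 39.1 to 55.6. Adipoq (0.0644 to 1.67 CPM against 0.0693 to 1.01) and Cfd (0.193 to 6.12 against 0.0462 to 3.23) overlapped. The adipocyte sum is therefore a poor measure of fat. The 20 macrophage markers summed to 538 to 1070 CPM against 446 to 1077 and the 16 lymphocyte markers to 20.1 to 45.8 against 23.7 to 49.3. The 9 erythroid markers summed to 4.70 to 11.9 CPM against 3.28 to 5.43, and the 3 of them that were tested had positive differences with a median of 0.71. The 4 globin genes among the 9 had no counts in any of the 6 libraries. Most of the sum was Alas2, at 4.10 to 10.8 CPM against 2.89 to 4.97, so the sum is a poor measure of blood. The part of these tissues in the differences was not tested.

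The difference from daughters of dose 1 mothers does not involve the control libraries, although their spread enters the shared fit. No gene passed (0%), 861 genes (4.93%) had an unadjusted p under 0.05, and DESeq2 called 4. The 8 genes of the Dctn3 run differed by -0.31 to 0.06 on the log2 scale. Among clock genes, 6 were higher and 2 lower at an unadjusted p under 0.05, with Dbp higher by 1.07, Per3 by 0.72 and Arntl at -0.72, against 2.42% and 2.51% of all genes. None of the 23 cholesterol genes passed an unadjusted p of 0.05 in that comparison, and Star differed by -0.36.

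Against daughters of dose 2 fathers, 14 genes passed the adjusted threshold (0.0802%), 3 higher (0.0172%) and 11 lower (0.063%), and 3716 (21.3%) had an unadjusted p under 0.05. D16Ertd472e stood at 150, 86.4 and 76.2 CPM in the dose 1 group and at 34.6, 37.6 and 32.9 CPM in the dose 2 group (1.63 ± 0.24, adjusted p = 0.0482). Bsn and Slc22a15, an organic solute carrier gene, rose by 1.18 ± 0.19 and 1.19 ± 0.21. Of the 11 lower genes, Gdf9 stood at 62.1, 78.9 and 82.9 CPM against 132, 139 and 139 CPM (-0.83 ± 0.14, adjusted p = 0.0482), and Npm2, the oocyte nucleoplasmin, at 16.6, 19 and 17.9 CPM against 27.5, 32.9 and 31.7 CPM (-0.74 ± 0.12, adjusted p = 0.0482).
Ftdc2, Khdc3 and Fbxw24 were lower by 0.92, 0.73 and 0.72 on the log2 scale. At an unadjusted p, 16 of 22 zona pellucida list genes and 18 of 23 maternal-effect genes were lower and none higher, while 19 of 23 cholesterol genes and 13 of 21 luteal genes were higher, against 9.52% and 11.8% of all genes. The count of 14 was unstable: it was 0 without father dose 1 A, father dose 1 B, father dose 2 B or father dose 2 C, 144 without father dose 2 A and 482 without father dose 1 C, 0 in a fit of the 6 libraries alone and 1252 with DESeq2.

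In testis of the sons of the same cross, aged 10 weeks, 764 of 19241 genes passed (3.97%), 427 higher (2.22%) and 337 lower (1.75%). DESeq2 called 1282. With a library left out the edgeR count was 224 (control A), 247 (father dose 1 B), 271 (father dose 1 C), 285 (control C) or 1595 (control B). These libraries have their own controls, which carry the same cross label as the control daughters. Litters are not given, so sons and daughters may be siblings and the tissues may not be independent. Dctn3 stood at 38.5, 50.5 and 58.1 CPM in sons of dose 1 fathers and at 14.2, 10.8 and 13.3 CPM in sons of control parents (1.91 ± 0.21, adjusted p = 0.00018). Galt rose by 2.00 ± 0.22 in testis. In all, 7 of the 8 genes of the run passed in testis, and the range over the 8 was 1.00 to 2.32, with Gm42274 at an adjusted p of 0.0796. The same 8 genes were thus higher in daughters and sons of dose 1 fathers than in the respective controls, with the run chosen after both sets of values were known.

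The genes with the largest testis differences are given with their ovary values. Mrs2, a mitochondrial magnesium channel, fell in testis, to 3.79, 4.73 and 8.20 CPM from 49.2, 48.9 and 46.9 CPM (-3.16 ± 0.21, adjusted p = 9.52e-07), and in ovary differed by -0.27 ± 0.22. Mog, a myelin gene, rose in testis to 4.46, 7.11 and 7.88 CPM, from 0, 0.0252 and 0.0741 CPM, and had no counts in the 6 ovary libraries. Klb, which encodes beta-klotho, was higher in testis by 2.97 ± 0.32 (adjusted p = 0.000135) and had 4 counts in all in the father dose 1 ovaries and 17 in the control ovaries. The next in size by the naming rule were Skint10, Faim2 and Apol7e, which rose in testis by 2.12, 2.1 and 2.03 on the log2 scale, and Ceacam10, Ptprt, Cyp21a1 and Klk1b27, at -2.95, -2.63, -2.05 and -1.74. None of those tested in ovary had an unadjusted p under 0.05 there. Of the 764 testis genes, 567 were tested in ovary and 74 of these had an unadjusted ovary p under 0.05, which is 13.1% of the 567, where 9.63% of all ovary genes tested had such a p, and 4.4% of the 1681 ovary genes. Their direction was the same in 39 and opposite in 35. Of the clock genes, Dbp and Arntl differed by -0.22 and 0.03 in testis. Of the 19 clock genes tested there, 2 passed the adjusted threshold, where 3.97% of all testis genes did. Nfil3, which was also lower in ovary, was among them, at -0.78 (adjusted p = 0.0158).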

How the data were processed

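The deposited values are gene counts, 1 column per library, which the authors made from stranded mRNA libraries. The submitters' processing notes name TopHat2 2.1.1, Bowtie2 2.4.5, featureCounts 2.0.3 and build mm39. No source used here gives the annotation or the strand setting of counting, so overlapping and antisense genes may share reads. Of 26264 entries, 133 without an ID (0.0591% to 0.0861% of counts) were left out.

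edgeR 4.0.16 (R 4.3.3) fitted the 18 ovary F2 libraries (6 groups of 3) with TMM factors, a minimum count of 10, robust quasi-likelihood tests and Benjamini-Hochberg adjustment at 0.05 over all genes tested. The testis F2 libraries were fitted the same way. Log2 differences carry their SE. CPM are not TMM-scaled and are compared only within a gene. No pair of libraries of a group agreed within sampling noise (chi-square per gene 21.1 to 104 over 18 pairs). The scripts were tested on simulated counts.

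Named genes were the 15 of smallest p with a mean of at least 1 CPM and no predicted name, since none passed, plus in each list the core genes and the 3 of smallest p, and in the other comparisons the 5 largest each way. Genes beyond this rule (the neighbours of Dctn3, and Nr1d2, Tef, Hlf, Rora, Cry1, Nfil3 and Hsd17b7) were named after their values were seen. Some genes within the rule are not reported here. The comparison and the lists were chosen with earlier results of these data known. Alternatives were DESeq2 1.42.0, RLE factors, no filter, a replicate block, other library sets and leaving out each library.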

Additional observations from a re-analysis of the deposited data

Results flagged for a closer look

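Among the 67 named genes with a mean of at least 1 CPM in both tissues, 10 had ovary libraries that lay wholly on one side of their controls and testis libraries that lay wholly on the other, and 9 lay on the same side in both. Over all 12854 such genes tested in both tissues, 252 (1.96%) lay on opposite sides and 226 (1.76%) on the same side. The named genes were chosen partly for small ovary p-values, so the shares are not comparable. The difference between the tissues was not tested, and tissue, sex and age differ together. Star was at 2.12 on the log2 scale in ovary and -0.70 in testis, Scarb1 at 1.00 and -0.44, and Cyp11a1 at 0.44 and -0.55, so 3 genes of cholesterol delivery and the first steroid step lay higher in daughters and lower in sons. Gpx1 was at 0.45 and -0.43, Cat at 0.41 and -0.31 and Myorg at 0.39 and -0.32. In the other direction, Nlrp1a was at -1.47 in ovary and 0.82 in testis, Dok7 at -0.73 and 0.32, Noct at -0.54 and 0.10, and Hspa5, a chaperone of the endoplasmic reticulum, at -0.44 and 0.17.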

How the results depend on the processing

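The main limit is 3 libraries per group, and low genes such as Areg rest on few counts. Against control parents, edgeR called no gene with RLE factors, without the filter, with the replicate block, on the 6 libraries alone or on all 27, and 0 to 1 with a library left out (1 without father dose 1 C, Ttc39aos1), while DESeq2 called 82. DESeq2 passed 22 of the 84 genes followed here, and 6 of the 8 in the Dctn3 run, where it called 82 of all 17454 genes. The 84 were chosen partly for small p in these libraries and the run after its values were seen. These shares are therefore not comparable. Against dose 1 mothers, DESeq2 called 4 and leaving out a library gave 0 to 1 (1 without father dose 1 C or mother dose 1 A). Against dose 2 fathers, the count of 14 became 1252 with DESeq2, 9 with the replicate block, 0 on the 6 libraries, 1 on all 27 and 0 to 482 with a library left out. In testis, 764 became 1282 with DESeq2 and 224 to 1595 with a library left out (224 without control A, 1595 without control B, 247 without father dose 1 B, 271 without father dose 1 C, 285 without control C). The cause was not tested.

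No sign turned in the 84 genes under the other settings, and 6 turned with a library left out. Ranges over the left-out libraries were -0.066 to 0.024 for Fam219a, -0.18 to 0.64 for Per2, -0.023 to 0.22 for Srebf2, -0.37 to 4.05 for Akr1c18, -1.59 to 0.14 for Adamts1 and -1.41 to 0.36 for Ptgs1. The main fit did not pair the libraries by the letters A, B and C. Deviations of same-lettered father dose 1 and control libraries correlated at 0.102, 0.134 and 0.00146, and only A and B were closest to their own letter. With 3 libraries per group, these values cannot show whether the letters mark a pairing. With the replicate block, 809 testis genes passed.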
